A study of Mus musculus with 6 samples.

Results

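Heat shock proteins and their partner chaperones were examined in RNA of the cardiac side population (SP). The members were chosen by symbol, namely the HSP70 (*Hspa*), small heat shock protein (*Hspb*), HSP90, HSP60 (*Hspd1*), HSP10 (*Hspe1*) and HSP110 (*Hsph1*) genes, the J-domain genes (*Dnaja*, *Dnajb*, *Dnajc*), the *Cct* chaperonin subunits, the *Bag* genes, the factors *Hsf1* and *Hsf2*, and the HSP90 co-chaperones *Fkbp4*, *Stip1*, *Ahsa1* and *Chordc1*. Protein-coding genes alone were kept, which gave 92 members out of 50600 genes in the deposited table, 21764 of them protein-coding. By family there were 28 *Dnajc*, 13 HSP70, 13 *Dnajb*, 8 small heat shock protein, 8 *Cct*, 6 *Bag*, 4 *Dnaja*, 4 HSP90 co-chaperone, 3 HSP90 and 2 *Hsf* genes, and 3 more for HSP60, HSP10 and HSP110. *Cct6a* fits the names but is annotated as a processed transcript, so it is not a member.

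SP cells are heart cells that pump out a fluorescent Hoechst dye that stains DNA, and the study compared those of wild-type (wt) mice with those of mice that lack the ligand of the receptor tyrosine kinase Flt3. The 3 wt libraries came from C57BL/6NRj mice and the 3 libraries labelled flt3L-/- from the strain given as C57BL/6Flt3Ltml/mx on a C57BL/6N background. All mice were 8 to 12 weeks old, and each library held the sorted cells of 4 pooled mice, taken from a heart suspension depleted of cardiomyocytes and erythrocytes. A wt and an flt3L-/- sort were made on each of 3 dates (22 and 24 August 2016 and 29 August 2017), and these sorting pairs are numbered 1, 2 and 3. By the paper's protocol, suspensions were digested at 37°C for 25 min and stained with the dye at 37°C for 90 min before sorting. Handling and sorting times of the single libraries are not given.

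Heat shock proteins bind unfolded or partly folded proteins. HSP70 proteins take them over from J-domain proteins, nucleotide exchange factors such as the BAG proteins and HSP110 reset the cycle, and HSP90 with its co-chaperones completes the folding of kinases and hormone receptors. The heat shock factor Hsf1 switches on the inducible members when unfolded protein builds up in the cytosol, while the lumen of the endoplasmic reticulum (ER) has its own members under the unfolded protein response. In heart cells these proteins are known for their protective part in ischemia, and they are also induced by warming and enzymatic dissociation of tissue.

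The most abundant members, *Hspa1a* and *Hspa1b*, encode the same inducible HSP70 and lie side by side on the minus strand of chromosome 17. Their 250 bases before the start of transcription are shown because the pair of genes is nearly identical there, with 247 of 250 bases (98.8%) the same. They are RefSeq sequences of GRCm38.p6, chr17:34972157-34972406 for *Hspa1a* and chr17:34959239-34959488 for *Hspa1b*, both read 5′ to 3′ on the minus strand. Capitals mark the 3 positions that differ, at -207, -204 and -2 from the start.
Hspa1a: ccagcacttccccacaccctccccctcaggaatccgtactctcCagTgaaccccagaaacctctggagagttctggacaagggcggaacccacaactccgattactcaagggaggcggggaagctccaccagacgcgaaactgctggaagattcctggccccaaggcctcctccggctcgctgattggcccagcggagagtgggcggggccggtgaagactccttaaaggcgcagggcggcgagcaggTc
Hspa1b: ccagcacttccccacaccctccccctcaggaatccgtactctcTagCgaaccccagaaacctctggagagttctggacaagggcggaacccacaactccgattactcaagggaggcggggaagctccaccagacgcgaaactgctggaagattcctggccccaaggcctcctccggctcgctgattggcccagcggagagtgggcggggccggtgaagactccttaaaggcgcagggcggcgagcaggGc

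Of the 92 members, 75 had a promoter (250 bases before to 50 after the start) in the RefSeq table. The other 17 were *Bag4*, *Cct4*, *Dnajc11*, *Dnajc12*, *Dnajc18*, *Dnajc2*, *Dnajc22*, *Dnajc30*, *Dnajc5*, *Dnajc5b*, *Hsf1*, *Hsp90aa1*, *Hsp90ab1*, *Hspa13*, *Hspa8*, *Hspa9* and *Hspb2*. The motif of the heat shock element, GAANNTTCNNGAA on either strand, was found in 5 of these 75 members (6.67%), against 0.662% of 27025 genes and 0.603% of 32851 promoters. The 5 were *Hspd1*, *Hspe1*, *Hsph1*, *Chordc1* and *Dnajb6*. Their windows are shown because this motif is the one that heat shock factors are known to bind, with every matched base in capitals. *Hspd1* and *Hspe1* lie head to head and share one window, in which 2 matches overlap, and 3 matches overlap in *Chordc1*. The *Hsph1* match lies after the start, from position 16 or 37 by the start used. *Hspa1a* and *Hspa1b* had no match, and elements that depart from these exact letters were not searched. The windows lie at chr1:55088053-55088082 on the plus strand (*Hspe1*), chr9:18292260-18292288 on the plus strand (*Chordc1*), chr5:149636280-149636308 on the minus strand (*Hsph1*) and chr5:29735844-29735872 on the plus strand (*Dnajb6*).
Hspe1: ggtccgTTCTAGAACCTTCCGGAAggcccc
Chordc1: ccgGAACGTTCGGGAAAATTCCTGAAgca
Hsph1: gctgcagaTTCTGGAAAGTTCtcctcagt
Dnajb6: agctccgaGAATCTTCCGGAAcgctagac

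The motif of the ER stress element, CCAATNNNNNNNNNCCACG on either strand, was found in 3 of the 75 members (4%), against 0.137% of genes and 0.119% of promoters. All 3 members act in the ER lumen, *Hspa5* as its HSP70 (BiP), *Hsp90b1* as its HSP90 (GRP94), and *Dnajc3* as a J-domain partner of BiP. *Hsp90b1* holds the motif at 2 places, of which the one farther from the start is shown. The windows lie at chr2:34772020-34772048 on the plus strand (*Hspa5*), chr10:86705633-86705661 on the minus strand (*Hsp90b1*) and chr14:118937822-118937850 on the plus strand (*Dnajc3*), and capitals again mark the match. A match is a stretch of letters and not a measured binding site.
Hspa5: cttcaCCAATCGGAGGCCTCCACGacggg
Hsp90b1: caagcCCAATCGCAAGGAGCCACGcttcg
Dnajc3: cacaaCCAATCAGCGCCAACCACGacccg

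Counts per library summed to between 24370913 and 31145519, so that 3 counts, taken as the limit of detection, equal 0.109 to 0.127 CPM (read counts scaled to a common library size). This limit covers counting error only, since the reads carry no molecular identifiers. Of the genes taken as SP markers, *Abcg2*, the dye pump, lay between 147 and 274 CPM and *Ly6a* between 523 and 1791 CPM. *Flt3l* itself lay between 8.67 and 12.1 CPM in wt. With 12.4 to 14.4 CPM its reads were not fewer in the libraries labelled flt3L-/-. Which exons the allele removes is not given in the sources used here, so these reads do not test the label by themselves. The libraries are therefore named by their label, and every direction below rests on that label. Levels below are CPM with edgeR's TMM scaling, and log2 fold changes are of libraries labelled flt3L-/- over wt, fitted with the sorting date as a covariate in edgeR's quasi-likelihood test. In these bulk samples, fewer cells of a type and less RNA per cell cannot be told apart.

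Chaperone transcripts made up a sizeable part of the RNA. The 92 members held between 2.84% (wt 2) and 4.13% (flt3L-/- 3) of all counts. Their summed level was 31227, 29533 and 31406 CPM in wt 1, 2 and 3, and 36782, 31834 and 46299.6 CPM in flt3L-/- 1, 2 and 3. The sums of the 2 groups did not overlap, but flt3L-/- 2 lay only just above the highest wt library. The 5 most abundant members, *Hspa1b*, *Hspa1a*, *Hspa5*, *Hsp90ab1* and *Hspa8*, held 68.3% to 70.0% of this sum in each library. Of the 92 members, 82 passed the filter of more than 1 CPM in at least 2 libraries. The other 10 (*Cct6b*, *Cct8l1*, *Dnajb3*, *Dnajb8*, *Dnajc22*, *Dnajc5b*, *Dnajc5g*, *Dnajc6*, *Hspb3* and *Hspb9*) reached at most 0.594 CPM in any library, and 2 of them, *Dnajc5b* and *Dnajc5g*, had no count at all.

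Per kb of exon, the order of mean levels over the 6 libraries was led by *Hspa1b* (2563 CPM per kb) and *Hspa1a* (1780.5 CPM per kb), followed by *Hspa5* (1208 CPM per kb) and *Hsp90ab1* (1118 CPM per kb). *Hspa8*, the constitutive cytosolic HSP70, was at 697 CPM per kb, *Hspb1*, the small heat shock protein HSP25, at 579 CPM per kb, and *Dnajb1*, the inducible HSP40, at 316 CPM per kb. The ranges over the 6 libraries overlapped between *Hspa1b* and *Hspa1a* and between each gene from *Hspa5* to *Dnajb1* and the next, whereas those of *Hspa1a* and *Hspa5* did not. Within each single library, *Hspa1b* was above *Hspa1a*, *Hsp90ab1* above *Hspa8*, and *Hspb1* above *Dnajb1*. The median of the 82 members was 15.7 CPM per kb. By family the median was highest for HSP90 (296 CPM per kb), then HSP70 (60.1 CPM per kb), the HSP90 co-chaperones (57.5 CPM per kb), the HSP60, HSP10 and HSP110 genes (52.3 CPM per kb), *Dnaja* (44.5 CPM per kb) and *Cct* (42.2 CPM per kb), and it was lowest for *Dnajc* (5.09 CPM per kb). The *Cct* subunits of the chaperonin ring that folds actin and tubulin lay within 28.6 to 70.6 CPM per kb, while the HSP70 genes ranged from 1.56 to 2563 CPM per kb.

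**Figure D1:**
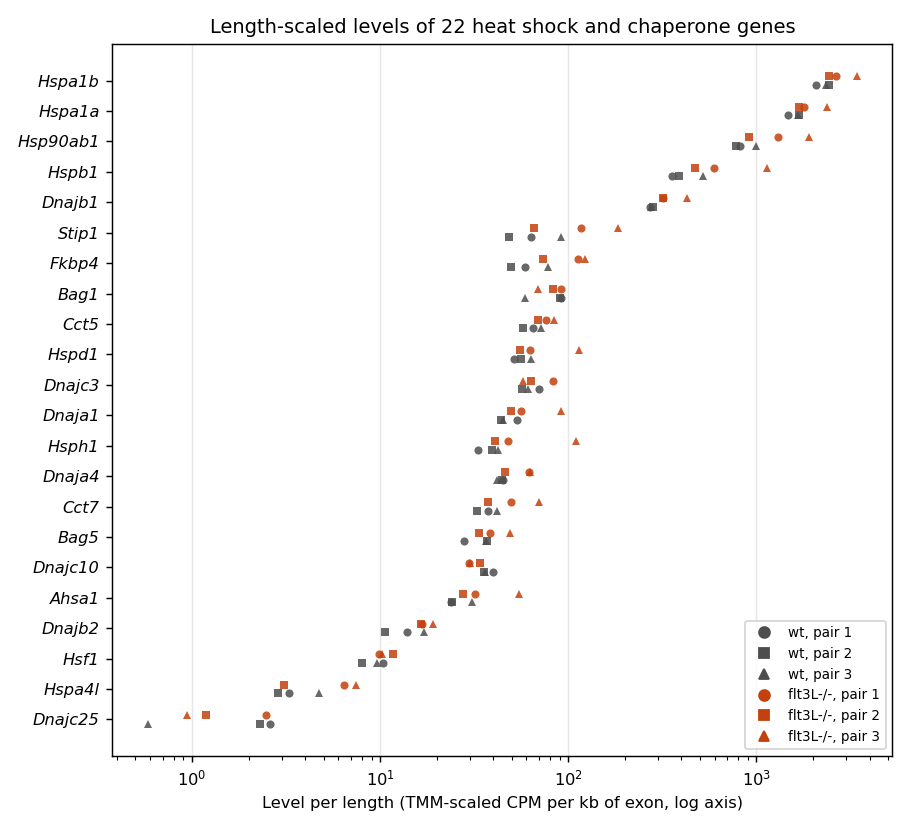
Level of the 22 members named by rule in each library, in TMM-scaled CPM per kb of exon on a log axis, with wt in grey and libraries labelled flt3L-/- in orange, and the marker giving the sorting pair. *Hspa1b* and *Hspa1a* stand highest in every library, and the orange triangle (flt3L-/- 3) lies farthest right for most heat-inducible genes such as *Hsph1* and *Hspb1*.

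No member passed the genotype test. Of the 82 members tested, 0 had a Benjamini-Hochberg adjusted p under 0.05 in edgeR's quasi-likelihood test, as was the case for 0.0% of the 13475 genes tested, where no adjusted p was below 0.973. With DESeq2, 1 member (*Fkbp4*) was called among 21 genes. At an unadjusted p under 0.05, 7 of 82 members (8.54%) were higher in the libraries labelled flt3L-/-, against 1.11% of all genes, and 0 were lower, against 2.49% of all genes. The 7 were *Fkbp4*, *Stip1*, *Hspb1*, *Hsp90ab1*, *Ahsa1*, *Hspa4l* and *Cct7*. The number of members under that threshold was 3, 10 and 2 when pair 1, 2 or 3 was left out (without pair 1, 1 of the 3, *Dnajc13*, was lower), 2 without the pairing, and 0 when flt3L-/- 3 alone was left out of a fit without the pairing. The last of these settings was chosen after seeing the data, and it keeps wt 3 without its partner library. The share of all genes under that threshold moved too, from 3.59% with all libraries to 2.57%, 7.47% and 1.87% without pair 1, 2 or 3, to 1.94% without the pairing and to 1.02% without flt3L-/- 3 and the pairing.

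In all, 58 of 82 members (70.7%) had a log2 fold change above 0, against 50.0% of all genes. Within the pairs, 27 of 82 members (32.9%) were higher in 3 of 3 pairs, against 14.2% of genes, and 8 members were lower in 3 of 3 pairs, against 11.5% of genes. The median log2 fold change was 0.10 over the members and -0.0003 over all genes. In pairs 1, 2 and 3 the median of the members' log2 differences was 0.12, 0.06 and 0.26. The groups did not overlap for 4 members that were higher (*Dnaja4*, *Dnajb1*, *Dnajb11* and *Dnajb12*), against 3.53% of genes, and for 3 members that were lower (*Dnajb5*, *Dnajc10* and *Hspb6*), against 2.92% of genes. With 82 members tested, these last counts are 4.88% and 3.66%, near the share of all genes.

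**Figure D2:**
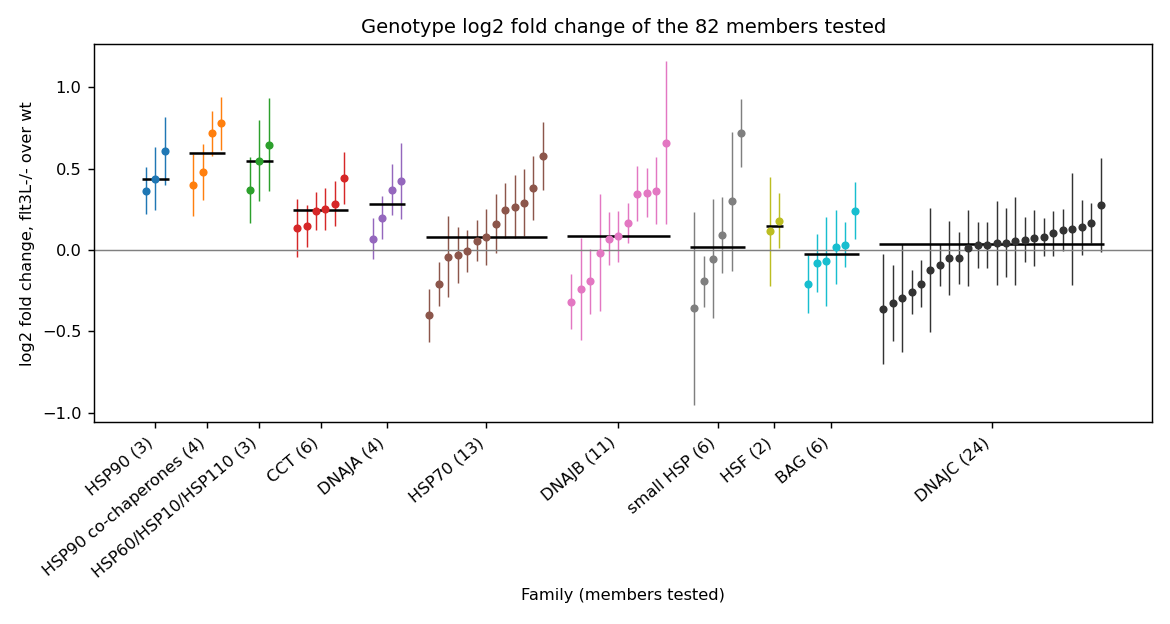
Log2 fold change of libraries labelled flt3L-/- over wt for each of the 82 members tested, grouped by family and sorted within it, with bars of 1 standard error and a black line at the family median. All members of the HSP90, HSP90 co-chaperone, HSP60/HSP10/HSP110, *Cct*, *Dnaja* and *Hsf* groups lie above 0, while the medians of the HSP70, *Dnajb*, small heat shock protein, *Bag* and *Dnajc* groups lie between -0.03 and 0.08.

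HSP90 and its co-chaperones had the highest family medians together with HSP60, HSP10 and HSP110. *Hsp90ab1* (ENSMUSG00000023944, chr17:45567775-45573271), the constitutive cytosolic HSP90, lay at 2451, 2333 and 3002 CPM in wt 1, 2 and 3 and at 3900.3, 2731 and 5696 CPM in flt3L-/- 1, 2 and 3. The groups overlapped, since flt3L-/- 2 was below wt 3, but each library labelled flt3L-/- was above the wt library of its own date. The log2 fold change was 0.61 (SE 0.21, unadjusted p = 0.0348, adjusted p = 0.973 in edgeR's quasi-likelihood test), with log2 differences of 0.67, 0.23 and 0.92 in pairs 1, 2 and 3. It was 0.45 without pair 3, and 0.35 without flt3L-/- 3 and without the pairing. *Hsp90aa1*, the inducible cytosolic form, was at 367 to 475 CPM in wt and at 449.6 to 867 CPM in the libraries labelled flt3L-/- (log2 fold change 0.44, SE 0.19). Of all windows of the read length (81 bases) in its transcripts, 41.7% also occur in other genes. *Hsp90b1*, the ER form, had a log2 fold change of 0.37 (SE 0.15) and pair differences of 0.41, 0.27 and 0.42, the most even of the family.

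*Stip1* (ENSMUSG00000024966, chr19:7020702-7039967) encodes HOP, which carries clients from HSP70 to HSP90. Its level was 134, 102 and 194 CPM in wt 1, 2 and 3 and 246, 139 and 389.5 CPM in flt3L-/- 1, 2 and 3. The library labelled flt3L-/- was higher in 3 of 3 pairs, although the groups overlapped, with flt3L-/- 2 close to wt 1 and below wt 3. The log2 fold change was 0.78 (SE 0.16, unadjusted p = 0.00547, adjusted p = 0.973 in edgeR's quasi-likelihood test), and it ranged from 0.66 to 0.92 when a pair was left out. Without flt3L-/- 3 alone and without the pairing it was 0.43.

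*Fkbp4* (ENSMUSG00000030357, chr6:128429735-128438677) encodes FKBP52, an HSP90 partner of steroid receptors. Its level was 166, 139 and 219 CPM in wt 1, 2 and 3 and 315, 206 and 344 CPM in flt3L-/- 1, 2 and 3. Only flt3L-/- 2 fell within the wt range. Its log2 fold change of 0.72 (SE 0.14, unadjusted p = 0.00413) had the smallest p of all members and the rank 17 among all genes, with an adjusted p of 0.973 in edgeR's quasi-likelihood test. In DESeq2 its adjusted p was 0.0492, the lowest over the alternatives, where it reached 0.9998. Its pair differences were 0.93, 0.57 and 0.65, so pair 3 was not the largest here. Its log2 fold change was 0.75 without pair 3, and 0.58 without flt3L-/- 3 and without the pairing.

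*Ahsa1*, which speeds up the HSP90 ATPase, was at 104, 106 and 135 CPM in wt and at 139, 120.4 and 240.3 CPM in the libraries labelled flt3L-/- (log2 fold change 0.48, SE 0.17, unadjusted p = 0.0393 in edgeR's quasi-likelihood test). Its log2 fold change was 0.30 without pair 3, and 0.18 without flt3L-/- 3 and the pairing. *Chordc1*, another HSP90 partner, had a log2 fold change of 0.40 (SE 0.19) and was lower in pair 2 (-0.07). The median of the 4 co-chaperones was 0.60 on the log2 scale. It was 0.48 without pair 3, and 0.30 without flt3L-/- 3 and without the pairing.

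**Figure D3:**
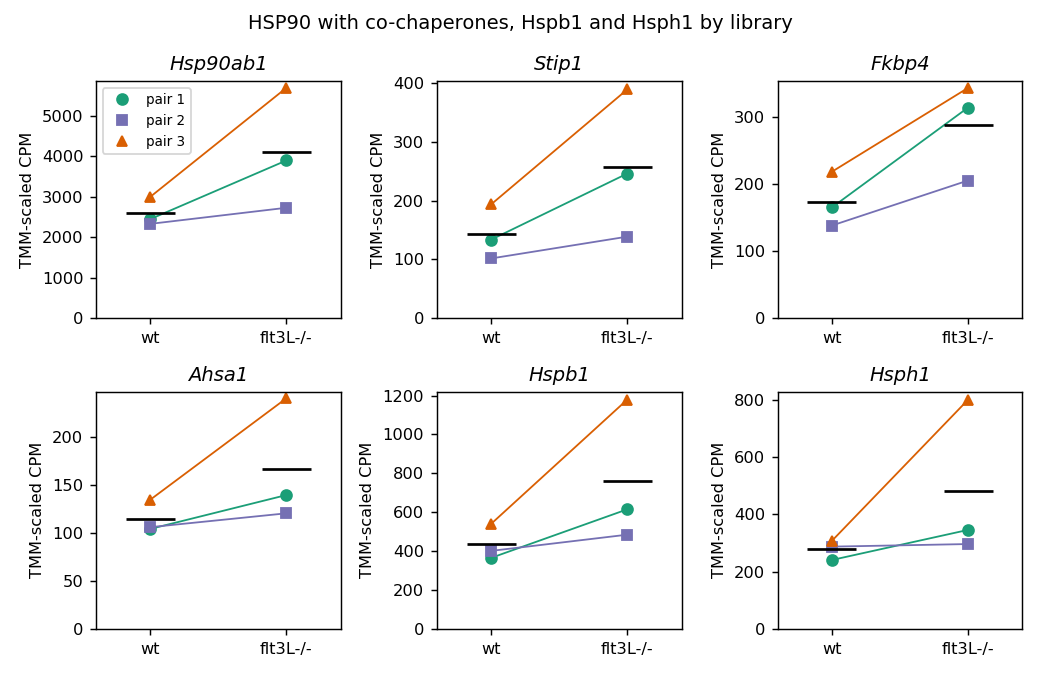
TMM-scaled CPM of 6 members in the wt and flt3L-/- libraries, with a line joining the libraries of each sorting pair and a black bar at the group mean of 3 libraries. All lines slope upward to the right, that of pair 2 least in each panel, and flt3L-/- 3 is the highest library in each panel.

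Among the HSP70 genes, *Hspa1a* (ENSMUSG00000091971, chr17:34969190-34972156) lay at 4380.3, 4999 and 4939 CPM in wt 1, 2 and 3 and at 5335, 4996 and 7047 CPM in flt3L-/- 1, 2 and 3. *Hspa1b* (ENSMUSG00000090877, chr17:34956436-34959238) lay at 5840.0, 6858 and 6603 CPM in wt and at 7396, 6793 and 9618 CPM in the libraries labelled flt3L-/-. Both were highest in flt3L-/- 3, and the groups overlapped through flt3L-/- 2. Their log2 fold changes were 0.27 (SE 0.19) and 0.29 (SE 0.20), with 95% intervals from -0.24 to 0.77 and from -0.24 to 0.82. The unadjusted p-values were 0.232 and 0.218 in edgeR's quasi-likelihood test, and pair 2 showed next to no difference in either gene. The log2 fold changes were 0.14 and 0.16 without pair 3, and 0.11 and 0.14 without flt3L-/- 3 and the pairing. Together they held 1.02% to 1.67% of the scaled reads of a library.

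The reads of this gene pair cannot be fully separated. Of all windows of the read length (81 bases) in the transcripts of *Hspa1a*, 51.3% also occur in *Hspa1b*, and 54.4% of those of *Hspa1b* occur in *Hspa1a*. The study assigned reads with equally good hits at random. The ratio of *Hspa1b* to *Hspa1a* counts lay between 1.33 and 1.39 in the 6 libraries. *Hspa1l*, their neighbour on the other strand, had 71.1% of its windows in common with the overlapping gene Gm10501, and its level of 328 to 466 CPM is uncertain for that reason.

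The other HSP70 genes had log2 fold changes from -0.40 to 0.58. *Hspa5* lay at 6076, 4073 and 4409.9 CPM in wt 1, 2 and 3 and at 5898, 4734 and 5459 CPM in flt3L-/- 1, 2 and 3. These ranges overlapped widely, and its log2 fold change was 0.16 (SE 0.18). *Hspa8* had a log2 fold change of 0.38 (SE 0.20) and was higher in 3 of 3 pairs, though 31.7% of its windows also occur in other genes. *Hspa4l*, an HSP110-like member, was at 38.5, 33.8 and 56.1 CPM in wt and at 75.8, 36.3 and 88.2 CPM in the libraries labelled flt3L-/-. It had a log2 fold change of 0.58 (SE 0.21, unadjusted p = 0.0403 in edgeR's quasi-likelihood test), with a difference of only 0.10 in pair 2. *Hspa12a*, a distant relative of the family, was the member with the lowest fold change (-0.40, SE 0.16, unadjusted p = 0.0589 in the same test), and it was lower in 3 of 3 pairs.

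The small heat shock proteins, which hold unfolded proteins in soluble complexes, had log2 fold changes from -0.36 to 0.72. *Hspb1* (ENSMUSG00000004951, chr5:135887919-135889563) was at 365, 401 and 540.2 CPM in wt 1, 2 and 3 and at 615, 484 and 1179 CPM in flt3L-/- 1, 2 and 3. Its groups overlapped through flt3L-/- 2, which was below wt 3, and flt3L-/- 3 was the highest by far. The log2 fold change was 0.72 (SE 0.21, unadjusted p = 0.0200, adjusted p = 0.973 in edgeR's quasi-likelihood test). It was 0.51 without pair 3, and 0.34 without flt3L-/- 3 and without the pairing. A processed copy, Hsp25-ps1, shares 45.8% of its windows. The median of the 6 small heat shock genes tested was 0.02 on the log2 scale. *Hspb6*, a muscle form, was at 18.7 to 22.2 CPM in wt and at 17.7 to 18.5 CPM in the libraries labelled flt3L-/- (log2 fold change -0.19, SE 0.16), and *Hspb8*, the partner of Bag3, ranged from 17.8 to 52.5 CPM with its maximum in wt 1.

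HSP60, HSP10 and HSP110 were above wt chiefly in pair 3. *Hsph1*, the cytosolic HSP110 that resets HSP70, was at 241, 288 and 308 CPM in wt 1, 2 and 3 and at 346, 297 and 801 CPM in flt3L-/- 1, 2 and 3. The library flt3L-/- 3 stood far above the other 5, and the groups overlapped. The log2 fold change was 0.65 (SE 0.29, unadjusted p = 0.0762 in edgeR's quasi-likelihood test). It was 0.28 without pair 3 and 0.20 without flt3L-/- 3 and the pairing. In the mitochondria, *Hspe1* (HSP10) and its partner *Hspd1* (HSP60) had log2 fold changes of 0.55 (SE 0.25) and 0.37 (SE 0.20). In pair 3 their log2 differences were 1.20 and 0.85, whereas in pair 2 they were 0.19 and -0.02. *Hspe1* and *Hspd1* are the genes that share the heat shock element shown above, and 13.6% and 29.1% of their windows also occur in other genes.

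All 6 *Cct* genes tested had a log2 fold change above 0, from 0.13 (*Cct2*) to 0.44 (*Cct7*), and 5 of them were higher in 3 of 3 pairs. Of all genes, 50.0% were above 0 and 14.2% were higher in 3 of 3 pairs. *Cct7* was at 252, 222 and 285 CPM in wt 1, 2 and 3 and at 336, 253 and 473 CPM in flt3L-/- 1, 2 and 3 (log2 fold change 0.44, SE 0.16, unadjusted p = 0.0421 in edgeR's quasi-likelihood test). Its log2 fold change was 0.30 without pair 3, and 0.22 without flt3L-/- 3 and the pairing. *Cct5*, the subunit with the highest level per kb, had nearly equal log2 differences of 0.24, 0.26 and 0.22 in the pairs. The family median was 0.25 on the log2 scale, 0.18 without pair 3, and 0.06 without flt3L-/- 3 and without the pairing. *Tcp1*, the first subunit of the same ring but no member by name, had a log2 fold change of 0.29 (SE 0.12). With prefoldin, which delivers actin to the ring, it made a list of 7 genes with a median of 0.24 on the log2 scale. Of these 7, 0 had an unadjusted p under 0.05 in edgeR's quasi-likelihood test, against 3.59% of all genes.

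The J-domain proteins stimulate the HSP70 ATPase. Of the genes tested, 0 of 4 *Dnaja*, 0 of 11 *Dnajb* and 0 of 24 *Dnajc* had an unadjusted p under 0.05 in edgeR's quasi-likelihood test. Of all genes 3.59% were under that threshold, so these counts of 0 are close to the background. All 4 *Dnaja* genes were above 0, as were 50.0% of all genes. The *Dnaja* median log2 fold change was 0.28, and it was 0.14 without pair 3 and 0.09 without flt3L-/- 3 and the pairing. *Dnaja1*, a cytosolic HSP40, was at 458, 378 and 389 CPM in wt and at 486, 426 and 786 CPM in the libraries labelled flt3L-/- (log2 fold change 0.42, SE 0.23). Its difference was 1.02 in pair 3 and at most 0.17 in the other pairs. *Dnaja4* (0.37, SE 0.16) did not overlap between the groups, but 41.8% of its windows also occur in the neighbouring gene *Wdr61*. *Dnajb1* was at 871, 903 and 882 CPM in wt 1, 2 and 3 and at 1017, 1020.0 and 1373 CPM in flt3L-/- 1, 2 and 3. Here the wt libraries lay close together (886 ± 16.4 CPM, SD, n = 3) and all libraries labelled flt3L-/- were above them (1137 ± 205 CPM, SD, n = 3). The log2 fold change of *Dnajb1* was 0.35 (SE 0.17, unadjusted p = 0.0989 in edgeR's quasi-likelihood test). It was 0.20 without pair 3, and 0.20 without flt3L-/- 3 and the pairing. *Dnajb2*, which guides clients to the proteasome, had a log2 fold change of 0.35 (SE 0.15).

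The *Dnajc* genes, the most diverse class, showed no common direction: 15 of 24 were above 0, against 50.0% of all genes, with a median log2 fold change of 0.04. *Dnajc3* was the most abundant per kb (65.2 CPM per kb) and had a log2 fold change of 0.10 (SE 0.14). *Dnajc10*, an ER reductase that acts with BiP, was at 199, 178 and 181 CPM in wt and at 148, 169 and 149.8 CPM in the libraries labelled flt3L-/-. These groups did not overlap, and the log2 fold change was -0.26 (SE 0.14, unadjusted p = 0.119 in edgeR's quasi-likelihood test). *Dnajc25* varied most of all members over the libraries, from 2.64 to 11.7 CPM. It was high in both libraries of pair 1 (11.7 and 11.2 CPM) and low in both of pair 3 (2.64 and 4.27 CPM), with a log2 fold change of -0.12 (SE 0.38).

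None of the *Bag* genes or heat shock factors passed the test. The median of the 6 *Bag* genes was -0.03 on the log2 scale. *Bag3*, the stress-inducible member that couples HSP70 to autophagy, was at 273, 154 and 154 CPM in wt 1, 2 and 3 and at 184, 179.8 and 202 CPM in flt3L-/- 1, 2 and 3. Its highest library was thus wt 1, and its log2 fold change was 0.02 (SE 0.23). The log2 fold changes of *Bag1*, which links HSP70 to the proteasome, and *Bag5* were 0.03 (SE 0.14) and 0.24 (SE 0.17). *Hsf1* was at 73.3, 57.0 and 68.4 CPM in wt and at 69.7, 82.7 and 72.3 CPM in the libraries labelled flt3L-/- (log2 fold change 0.18, SE 0.17), and *Hsf2* was low, between 2.14 and 4.04 CPM.

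The members known as targets of the heat shock response were described together, since they share no family. The list, called heat-inducible below, also holds *Hsp90ab1* and *Hspa8*, which cells express without heat. It was chosen with earlier results of these data known. Since it holds the HSP90 co-chaperones and the HSP60, HSP10 and HSP110 genes described above, counts over this list are not independent of theirs. Of its 16 members (*Hspa1a*, *Hspa1b*, *Hsph1*, *Dnajb1*, *Dnaja1*, *Hsp90aa1*, *Hsp90ab1*, *Hspb1*, *Hspa8*, *Hspd1*, *Hspe1*, *Bag3*, *Chordc1*, *Stip1*, *Ahsa1* and *Fkbp4*), 16 had a log2 fold change above 0 (50.0% of all genes) and 11 were higher in 3 of 3 pairs (14.2% of all genes). The count above 0 was 15 with library size only as the scaling, without the pairing, without pair 2, without pair 3, and without flt3L-/- 3 and the pairing. At an unadjusted p under 0.05, 5 of the 16 were higher and 0 lower in edgeR's quasi-likelihood test, against 1.11% and 2.49% of all genes. Their median log2 fold change was 0.43, and in pairs 1, 2 and 3 the median difference was 0.32, 0.18 and 0.84. The median was 0.22 without pair 3, 0.58 without pair 2, and 0.17 without flt3L-/- 3 and without the pairing. The other 66 members tested had a median log2 fold change of 0.07, with 42 above 0.

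The summed level of the heat-inducible list was 18855, 19668 and 20656 CPM in wt 1, 2 and 3 and 23955, 20987 and 33239 CPM in flt3L-/- 1, 2 and 3. The wt libraries were close together, flt3L-/- 2 was just above them, and flt3L-/- 3 stood apart. For 15 of the 16 genes flt3L-/- 3 was the highest of the 6 libraries. It was the highest for 40 of all 82 members (48.8%), against 27.4% of all genes. In pair 3 the median difference was 0.84 for the heat-inducible list, 0.10 for the 7 ER lumen members and 0.31 for the 6 mitochondrial members. The ER list holds *Hspa5*, *Hsp90b1*, *Hspa13*, *Dnajb9*, *Dnajb11*, *Dnajc3* and *Dnajc10*. The mitochondrial list holds *Hspa9*, *Dnaja3*, *Dnajc15* and *Dnajc19*, with *Hspd1* and *Hspe1*, which are in the heat-inducible list too. The fitted median log2 fold change was 0.10 for the ER members and 0.07 for the mitochondrial members. In edgeR's quasi-likelihood test 0 of either list had an unadjusted p under 0.05, against 3.59% of all genes. The ER sum was highest in pair 1, at 8214 CPM in wt 1 and 8344 CPM in flt3L-/- 1.

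**Figure D4:**
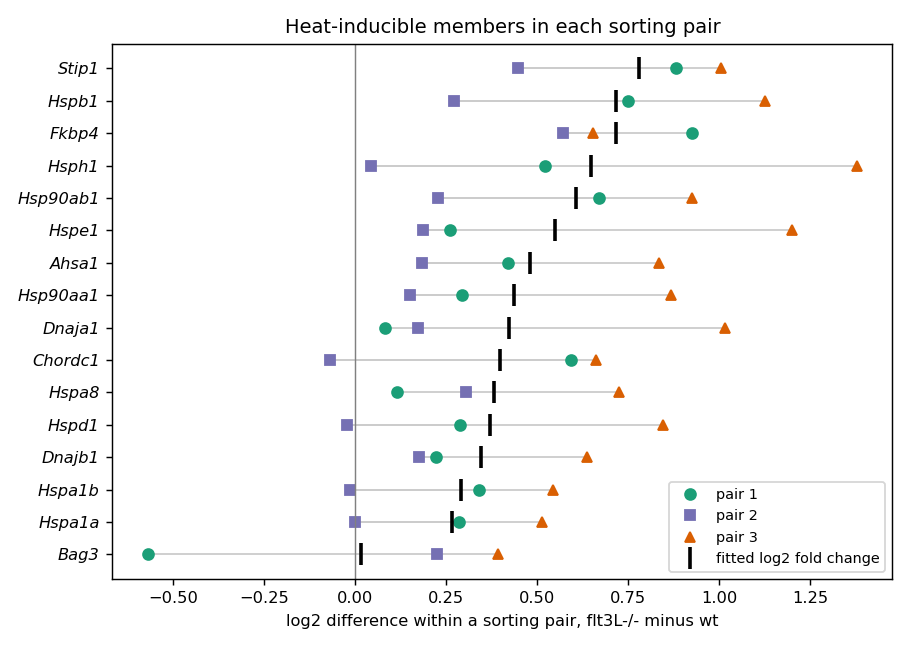
Log2 difference between the flt3L-/- and the wt library of each sorting pair for the 16 heat-inducible members, sorted by the fitted log2 fold change (black tick). Pair 3 (triangles) lies farthest right for every gene but *Fkbp4*, where pair 1 does, and pair 2 (squares) lies near 0 for *Hspa1a*, *Hspa1b*, *Hspd1* and *Hsph1*.

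Markers of other cells moved between the libraries as well. The summed level of 5 fibroblast markers was 15210.4, 8234 and 6307 CPM in wt 1, 2 and 3 and 6211, 9604 and 3144 CPM in flt3L-/- 1, 2 and 3, and 5 of 5 had a log2 fold change below 0. The sum of 5 leukocyte markers was 162, 499 and 1093 CPM in wt 1, 2 and 3 and 195, 528 and 135 CPM in flt3L-/- 1, 2 and 3. Thus flt3L-/- 3, which was highest for the heat-inducible members, was lowest for both lists, while wt 3 had the most leukocyte marker RNA. Mural markers summed to between 219 CPM (flt3L-/- 3) and 681 CPM (wt 1). The SP markers *Abcg2* and *Ly6a*, neither at 0, summed to between 670 CPM (wt 1) and 2065 CPM (flt3L-/- 3). Cardiomyocyte markers summed to 103 to 191 CPM, erythroid markers to 243 to 491 CPM and endothelial markers to 4915 to 6477 CPM. The part of the cells behind all these markers in the chaperone differences was not tested.

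Immediate early genes such as *Fos* and *Egr1*, which dissociation also induces, were summed in the same way. The sum of 12 of them was 29206, 21027 and 21566 CPM in wt 1, 2 and 3 and 25866, 24681 and 22889 CPM in flt3L-/- 1, 2 and 3. The highest library was wt 1, as it was for *Bag3*, and flt3L-/- 3 was within the range of the others. Their median log2 fold change was 0.09, and 0 of 12 had an unadjusted p under 0.05 in edgeR's quasi-likelihood test, against 3.59% of all genes.

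**Figure D5:**
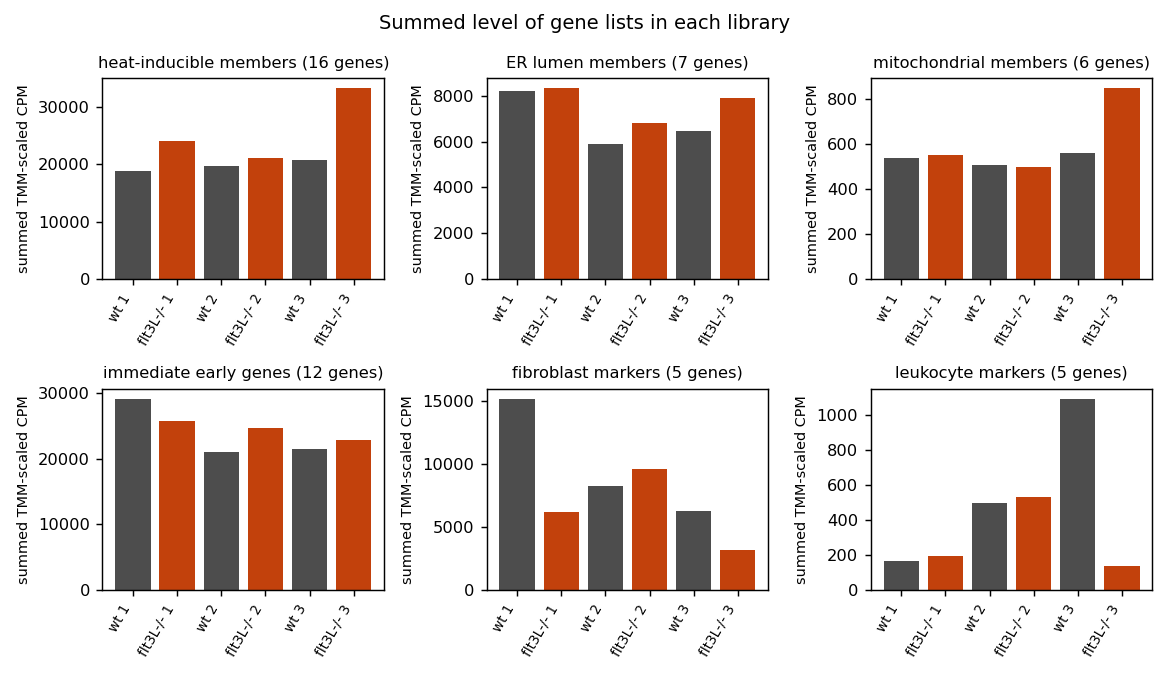
Summed TMM-scaled CPM of 3 lists of members (top) and of immediate early genes, fibroblast markers and leukocyte markers (bottom) in each library, with wt in grey and flt3L-/- in orange. The heat-inducible sum is highest in flt3L-/- 3 at 33239 CPM, where the fibroblast and leukocyte sums are lowest at 3144 and 135 CPM.

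Chaperone genes outside the naming rule were examined as lists, to be read against the 1.11% of all genes that were higher and the 2.49% that were lower at an unadjusted p under 0.05 in edgeR's quasi-likelihood test. Of 14 further co-chaperones of HSP70 and HSP90, 1 was higher at an unadjusted p under 0.05 (*St13*, the HSP70-interacting protein HIP, log2 fold change 0.42, SE 0.14) and 0 were lower in edgeR's quasi-likelihood test, with a median of 0.18. Of 12 ER chaperones and folding enzymes, 4 were higher and 0 lower at that threshold, with a median log2 fold change of 0.23 and 8 higher in 3 of 3 pairs, as were 14.2% of all genes. The 4 were *Sdf2l1* (0.62, SE 0.17), *Creld2* (0.51, SE 0.15), *Pdia6* (0.37, SE 0.14) and *Serpinh1* (1.804, SE 0.19). *Serpinh1* encodes HSP47, the heat shock protein that helps collagen fold, and is no member by its symbol. Its level was 1139, 984 and 942 CPM in wt 1, 2 and 3 and 4842, 3394 and 2737 CPM in flt3L-/- 1, 2 and 3. These groups did not overlap, as for the 3.53% of all genes that were higher without overlap, and the highest library was flt3L-/- 1. Its unadjusted p was 0.000275 and its adjusted p 0.973 in edgeR's quasi-likelihood test. Of 6 mitochondrial chaperones and proteases, 0 passed that threshold (median 0.17), and *Cryab*, the alpha-crystallin relative of the small heat shock proteins, had a log2 fold change of -0.14 (SE 0.32).

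The sorting date was tested for the same members. None of the 82 had an adjusted p under 0.05 in edgeR's quasi-likelihood test of the date (0.0% of all genes), with 0.598 as the smallest among members. At an unadjusted p under 0.05 there were 8 members (9.76%), against 8.28% of all genes, which is close to the background. With DESeq2, 1 member (*Stip1*) was called for the date among 389 genes. The mean level of *Stip1* on the 3 dates was 190.0, 120.3 and 292 CPM (unadjusted p = 0.00571 in edgeR's quasi-likelihood test). *Fkbp4*, *Hspa4l*, *Hspb1* and *Ahsa1* were also among the 8, so 5 of the 7 members under that threshold for genotype were under it for the date too. Both tests come from the same fit, and the share of all genes under both thresholds was not computed. Without pair 3, 1 member was left at an unadjusted p under 0.05 for the date, against 5.25% of all genes.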

How the data were processed

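RNA of sorted cardiac SP cells was sequenced as unstranded single reads of 81 bases from SMART-Seq v4 libraries. The authors mapped the reads to mm10 with STAR 2.5.2a, kept up to 10 hits, placed equally good hits at random, and deposited the raw read count per gene on Ensembl release 88. FastQC 0.11.3 is named in the submitters' processing notes. Symbols, biotypes and exons came from GENCODE M21, which lacked 224 of the 50600 genes, and promoters from RefSeq. Reads from overlapping or antisense genes cannot be told apart.

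The members, lists and tests were chosen with earlier results of these data known. From the counts, protein-coding genes above 1 CPM in 2 or more of the libraries were tested in edgeR 4.0.16 on R 4.3.3 (TMM, glmQLFit with legacy = TRUE, glmQLFTest, sorting date as covariate), a design taken from the paper's methods and run in other software versions. The design has 2 residual and 2.79 prior degrees of freedom. P-values were adjusted after Benjamini-Hochberg over 13475 genes, and the standard errors come from the F statistic. Pair differences used a prior count of 2. Groups are as given by the labels. The pairing comes from the sorting dates and the paper, and same-date libraries correlated in their deviations at 0.180, 0.104 and 0.116. Pairs of different dates gave -0.354 to 0.247, so these correlations alone do not single out the dates.

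The genes named are the 3 markers, the member with the highest level per kb and the smallest p of each family, and the 5 smallest genotype and date p-values. Other members were chosen after their values were seen. Alternatives were DESeq2 1.42.0 and its size factors, library size only, legacy = FALSE, other filters, all biotypes, other thresholds, no pairing, and each pair left out. Figures were drawn with matplotlib 3.10.9.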

Additional observations from a re-analysis of the deposited data

How the results depend on the processing

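DESeq2 called 1 member for genotype and 1 for the date, where edgeR called 0 of each. At an unadjusted p under 0.05, the genotype count of 7 members became 2 without the replicate block (no pairing), against 1.94% of all genes. In the main fit the count was 2 at a threshold of 0.01, where the share of all genes was not computed. Leaving out a pair gave 2 to 10 members for genotype and 1 to 11 for the date, against 8. The share of all genes ran from 1.87% to 7.47% for genotype, and for the date it was 5.67%, 14.4% and 5.25% without pair 1, 2 and 3, against 8.28%. Without flt3L-/- replicate 3 and without the block, chosen after seeing the data, the genotype count was 0. Medians over all members and over the heat-inducible list stayed above 0 in the settings run, from 0.05 to 0.19 and from 0.17 to 0.58. Some small log2 fold changes reversed. With library size only, *Bag1* was at -0.0059, and without flt3L-/- replicate 3 and the block *Dnajc25* was at 0.0012. Over the fits that left out a pair, *Bag1* ranged from -0.073 to 0.097, *Hsf1* from -0.017 to 0.31 and *Dnajc25* from -0.51 to 0.28. The cause of these changes was not tested. Family medians near 0 changed sign as well. The *Bag* median of -0.03 was 0.09 without replicate 1 and 0.02 without flt3L-/- replicate 3 and the block, the *Dnajc* median of 0.04 was -0.0014 with library size only and -0.0027 without flt3L-/- replicate 3 and the block, and the small heat shock median of 0.02 was below 0 in 5 settings, down to -0.12 without replicate 2. Without flt3L-/- replicate 3 and the block, the median was 0.26 for HSP90 and 0.10 for HSP60, HSP10 and HSP110, against 0.44 and 0.55. In the paired fit without replicate 3 these medians were 0.34 and 0.22. The 10 members below the filter reached at most 0.594 CPM in any library and were not tested in the main fit.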
